A study of Mus musculus with 12 samples.

Results

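The genes described here are the mouse protein-coding genes whose symbol is Zfp followed by a digit, without the mRNA-decay genes Zfp36, Zfp36l1, Zfp36l2 and Zfp36l3, and with a mean of at least 1 TPM (a level scaled for transcript length and library total) over the 12 libraries. By this rule 279 of 390 such genes of any level were chosen, out of 55335 genes listed. The series profiled by RNA-seq dendritic cells grown from bone marrow (BMDC) of C57BL/6 mice for 6 days with GM-CSF, with new medium every 2 days. All groups had the genotype CreER, a tamoxifen-inducible Cre, with the Ctcf gene intact. WT received neither agent, WTL received LPS (100 ng/ml for 3 h), WT + JSH23 received JSH-23 (100 µM for 3 h), and WTL + JSH23 received JSH-23 and then LPS, with 3 libraries in each of the 4 groups. LPS is the bacterial cell-wall component sensed by Toll-like receptor 4, and JSH-23 is a small molecule that keeps the NF-κB subunit RelA out of the nucleus. The methods of the study give CD11c selection of the cells and call the libraries biological replicates. The sources used here do not state if the groups without JSH-23 were given its solvent. WT and WTL carry the replicate numbers 4 to 6 and the JSH-23 groups 1 to 3, so a difference in preparation between these sets of libraries cannot be told apart from JSH-23.

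Zfp is the mouse symbol stem for zinc-finger proteins, most of which hold arrays of C2H2 fingers, small folds that grip a zinc ion with cysteines and histidines and read DNA bases. The largest subfamily carries a KRAB domain, which recruits the corepressor TRIM28 and through it the H3K9 methyltransferase SETDB1, HP1 proteins and DNA methylation, and which is best known for silencing retroviral elements. KRAB genes arose by repeated tandem duplication and lie in large gene clusters, so that close paralogs share long stretches of sequence. Other Zfp proteins bind promoters as ordinary regulators, and a few act on RNA, ribosomes or chromosomes and not on DNA.

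Libraries held between 24664724 and 34837847 expected counts. Dendritic cell markers, Itgax and Flt3 among them, were at or above 1 TPM for 10 of 10 genes and summed to between 21930 and 24760 TPM in every library, and lymphocyte markers summed to between 0.26 and 2.66 TPM. Macrophage markers (8 of 8 genes at or above 1 TPM in every group) summed to between 1195 and 1240 TPM in WT, 1802 and 1821 in WTL, 1081 and 1123 in WT + JSH23, and 1652 and 1743 in WTL + JSH23. Neutrophil markers summed to between 367 and 379.4 TPM in WT, 321.3 and 334.5 in WTL, 318.4 and 345.1 in WT + JSH23, and 270.1 and 290.7 in WTL + JSH23. These lists moved with the groups compared below and their part in the Zfp results was not tested. All 7 LPS response genes checked, Il6 and Tnf among them, rose with LPS with and without JSH-23. Under LPS 6 of the 7 were lower with JSH-23 and 1, Cxcl1, was higher (edgeR, adjusted p under 0.05). With JSH-23 alone 3 were higher and 2 lower.

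Of the 279 genes, 157 had a KRAB match in the translated coding sequence, 104 had 2 or more C2H2 matches and neither a KRAB nor a SCAN match, 4 had a SCAN match without KRAB, 13 had fewer than 2 C2H2 matches and 1 (Zfp993) had no complete coding sequence. KRAB was scored where at least 7 of 8 core positions matched, and 122 genes matched at all 8. KRAB genes held a median of 12 fingers and C2H2-only genes a median of 8. KRAB genes were the lower expressed class, with a median of 4.19 TPM against 9.20 TPM in C2H2-only genes. Of the KRAB genes, 130 of 157 were clustered, meaning that at least 2 other Zfp genes started within 500 kb. Chromosome 7 held 65 of the 279 genes, chromosome 17 held 40 and chromosome 13 held 26.

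The highest levels belonged to Zfp207 (117.6 TPM over all libraries), a microtubule and kinetochore protein that binds BUB3, to Zfp706 (75.8 TPM), to Zfp445 (57.2 TPM), a KRAB protein that guards genomic imprints, to Zfp263 (51.9 TPM) and to Zfp384 (44.3 TPM). The genes just inside the limit were Zfp772, Zfp763 and Zfp619 at 1.04, 1.065 and 1.09 TPM, and those just outside it were Zfp273, Zfp947 and Zfp11 at 0.972, 0.943 and 0.905 TPM. The share of all expected counts that fell in the 279 genes was between 0.571% and 0.582% in WT, 0.455% and 0.468% in WTL, 0.558% and 0.578% in WT + JSH23, and 0.499% and 0.526% in WTL + JSH23. The LPS groups did not overlap their unstimulated groups, and WTL + JSH23 lay between WTL and both unstimulated groups. These are shares of raw totals, which fall when other genes rise strongly, so they do not by themselves measure a fall of Zfp transcripts. TMM factors were 1.08 to 1.095 in WT and 0.8589 to 0.8801 in WTL. They were 1.113 to 1.121 in WT + JSH23 and 0.9387 to 0.9561 in WTL + JSH23, and the shares were not scaled by them. In bulk samples, fewer cells of a type and less RNA per cell cannot be told apart.

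**Figure D1:**
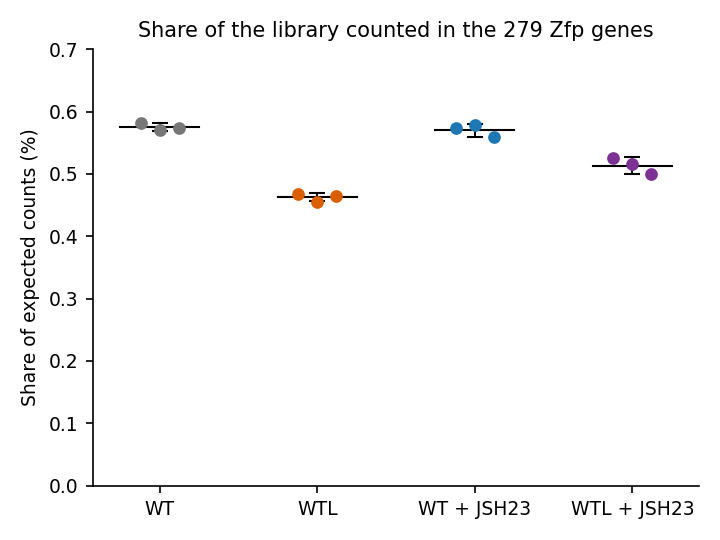
Share of each library's expected counts (%, vertical axis from 0) that fell in the 279 Zfp genes, for the 3 libraries of each group (points), with the mean (line) and SD (bars). WTL libraries sit lowest, at 0.455% to 0.468%, and WTL + JSH23 libraries at 0.499% to 0.526%. The shares are of raw totals, without TMM scaling.

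The first comparison asked how LPS alone changed Zfp transcripts. LPS lowered more Zfp genes than it raised: with edgeR's quasi-likelihood test at an adjusted p under 0.05 across all genes, 117 of 278 tested members fell, where 34.7% of all 14357 genes tested fell, and 63 rose, where 31.0% of all genes rose. As shares of the members these are 42.1% and 22.7%. The median change of the members was -0.15 on the log2 scale and that of all genes tested -0.05. Changes beyond 2-fold were fewer. Of 278 tested members 14 were higher, where 7.36% of all genes were, and 18 were lower, where 9.09% of all genes were. Each was a smaller share than that of all genes. One member, Zfp972, did not pass the filter on low counts. Counts of rises and falls moved with the scaling of the libraries: 46 rose and 147 fell with upper quartile scaling, 73 and 110 with the size factors of DESeq2, and 23 and 182 with limma on log2(TPM + 1), where the median of all genes was itself -0.26. The members' median lay below that of all genes under each of these 4 scalings.

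Of 156 tested KRAB genes 68 fell and 30 rose with LPS, with a median of -0.21, and of 104 C2H2-only genes 42 fell and 27 rose, with a median of -0.10. Both classes had more falls than rises under each of the 4 scalings, and the difference between the classes was not tested. With the stricter KRAB definition 56 of 122 fell, 22 rose and the median was -0.24. The dispersed KRAB genes had a median of -0.40 (14 of 27 fell and 5 rose) and the clustered ones of -0.18 (54 of 129 fell and 25 rose). Gene clusters of 5 or more members had medians from -0.55, at 32.8 to 33.6 Mb of chromosome 17, where 8 of 13 members fell and 2 rose, to 0.063, at 127.2 to 127.9 Mb of chromosome 7, where 2 of 9 fell and 1 rose. In the cluster with the most members, also on chromosome 17, 5 of 20 fell and 1 rose, with a median of -0.087, where 34.7% of all genes fell.

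**Figure D2:**
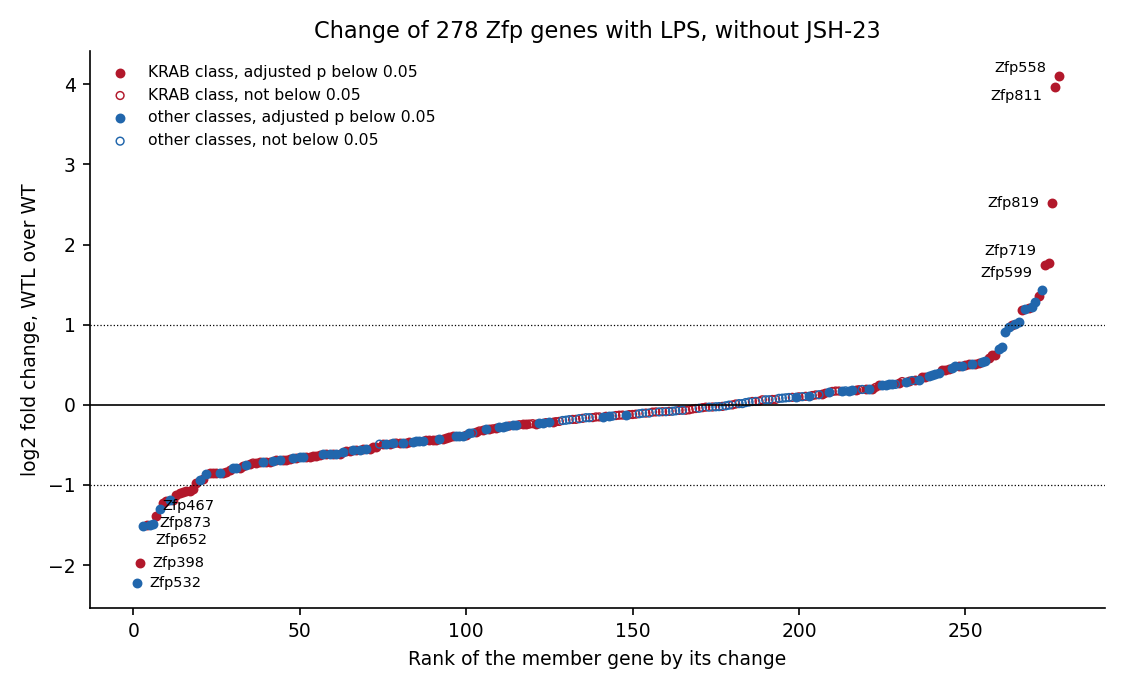
Log2 fold change with LPS in the absence of JSH-23 (vertical axis, WTL over WT) of the 278 tested Zfp genes ranked by change (horizontal axis), coloured by KRAB class; filled points passed an adjusted p of 0.05 and dotted lines mark 2-fold. The 5 labelled rises, from 1.75 to 4.10, are all KRAB genes.

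The 5 largest rises were those of KRAB genes. Of these, Zfp558, Zfp811, Zfp819 and Zfp599 had a mean under 1 TPM in WT and were chosen only because the limit is on the mean over all libraries, so that they had to be higher in another group. Among the 274 members at or above 1 TPM in WT 59 rose and 117 fell, where 31.0% of all genes tested, without that limit, rose and 34.7% fell. A limit on the WT level favours falls, so this count is no check on the excess of falls. Zfp558 (chr9:18455575-18478268) was counted at 0.214, 0.455 and 0.517 CPM (read counts scaled to a common library total, with TMM factors) in WT and at 7.71, 6.83 and 5.85 CPM in WTL, a log2 fold change of 4.10 ± 0.25 (SE, n = 3 per group; edgeR adjusted p = 4e-12). Zfp811 (chr17:32795676-32809931) went from 0.795, 0.882 and 0.828 CPM to 12.8, 14.1 and 12.2 CPM, a log2 fold change of 3.96 ± 0.13 (edgeR adjusted p = 2.1e-16). Groups without overlap were a condition of the choice, and for both genes every WTL library was more than 10-fold above the highest WT library. The genes next to Zfp811 did not share its size of change: Zfp871, on one side, rose by 0.34 and Zfp799, on the other, had an estimate of -0.05 (edgeR adjusted p = 0.72).

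Zfp819 and Zfp719 are neighbours on the plus strand of chromosome 7, 13934 bp apart, and rose together. Zfp819, a KRAB gene studied in pluripotent cells, was at 1.01, 1.37 and 0.966 CPM in WT and 7.17, 6.53 and 5.66 CPM in WTL (log2 fold change 2.52 ± 0.16, edgeR adjusted p = 1e-11). Zfp719 was at 3.09, 3.21 and 2.9 CPM in WT and 11.8, 9.9 and 9.62 CPM in WTL (1.76 ± 0.10, edgeR adjusted p = 2.6e-12). The gene on the far side of Zfp719 is Zfp658, below the limit for members at 0.581 TPM, which had a log2 fold change of 0.99 (edgeR adjusted p = 0.0012). The 250 bases before the RefSeq starts of the pair (GRCm38.p6), printed 5′ to 3′ in gene direction because the genes moved together, follow; capitals would mark a match to any motif searched, and there is none.
Zfp719, chr7:43579336-43579585 (+ strand): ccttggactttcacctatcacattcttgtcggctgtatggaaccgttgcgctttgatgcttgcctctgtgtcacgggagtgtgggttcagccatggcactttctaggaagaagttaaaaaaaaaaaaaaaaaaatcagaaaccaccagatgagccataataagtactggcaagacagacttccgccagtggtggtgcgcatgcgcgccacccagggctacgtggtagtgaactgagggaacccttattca
Zfp819, chr7:43606919-43607168 (+ strand): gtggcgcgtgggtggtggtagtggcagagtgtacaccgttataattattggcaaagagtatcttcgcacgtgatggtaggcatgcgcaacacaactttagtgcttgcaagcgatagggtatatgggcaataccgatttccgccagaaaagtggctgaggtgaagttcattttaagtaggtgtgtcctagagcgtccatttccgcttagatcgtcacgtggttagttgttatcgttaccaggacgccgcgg

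Motifs of LPS-activated factors were searched on both strands of these 250-base windows, of which RefSeq gave 238 of the 279 members. The motifs were the NF-κB motif by its name, the AP-1 motif TGANTCA, the interferon-response motif (GAAA, any 2 bases, GAAA) and the cAMP-response motif (CRE) TGACGTCA, which do not overlap by their letters. NF-κB letters were in 19 of the 238 member windows (7.98%) against 8.24% of the windows of all 27018 genes that have a window. The other shares were 3.36% against 7.82% for AP-1, 2.1% against 3.46% for the interferon-response motif and 4.2% against 1.77% for CRE. Of 12 members with a window among those more than 2-fold higher with LPS, 1 held NF-κB letters and none held any of the other motifs, and of 14 more than 2-fold lower 2 held NF-κB letters and 1 held AP-1 letters.

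Zfp599 (chr9:22247430-22259895), the fifth largest rise, had 2.17, 2.36 and 1.52 CPM in WT and 6.78, 6.9 and 6.81 CPM in WTL (log2 fold change 1.75 ± 0.15, edgeR adjusted p = 2.3e-09). Its neighbour Zfp809, which silences retroviruses primed by a proline tRNA, fell by 0.21 (edgeR adjusted p = 0.0022), and Zfp810, on the other side, fell by 0.93 (edgeR adjusted p = 1.3e-06). Adjacent Zfp genes in this stretch of chromosome 9 therefore had opposite signs.

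The largest falls mixed KRAB and C2H2-only genes. Zfp532, a member of a zinc-finger complex with the chromatin reader ZMYND8, was at 4.99, 4.41 and 3.69 CPM in WT and 1.08, 1.07 and 0.599 CPM in WTL (log2 fold change -2.22 ± 0.21, edgeR adjusted p = 7.9e-09). It had a mean under 1 TPM in both LPS groups and was chosen through the groups without LPS, a choice that favours a fall. Zfp398 (chr6:47835661-47873537) was at 11.5, 12.1 and 11.3 CPM in WT and 3.02, 3.53 and 2.12 CPM in WTL (-1.98 ± 0.14, edgeR adjusted p = 8.9e-11). Zfp467, a regulator of fat cell formation in the same cluster of chromosome 6, was at 16, 15.3 and 18 CPM in WT and 4.88, 5.87 and 6.81 CPM in WTL (-1.50 ± 0.10, edgeR adjusted p = 1.5e-11). All these genes were picked among those without overlap, so by that choice the lowest WT library was above the highest WTL library. Zfp652 (-1.51 ± 0.06, edgeR adjusted p = 4.1e-15) and Zfp873 (-1.50 ± 0.14, edgeR adjusted p = 6.7e-09) completed the 5 largest falls. Zfp652 shares its locus with other protein-coding genes and its counts were fractional in all 12 libraries, which is how RSEM writes reads shared between genes.

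**Figure D3:**
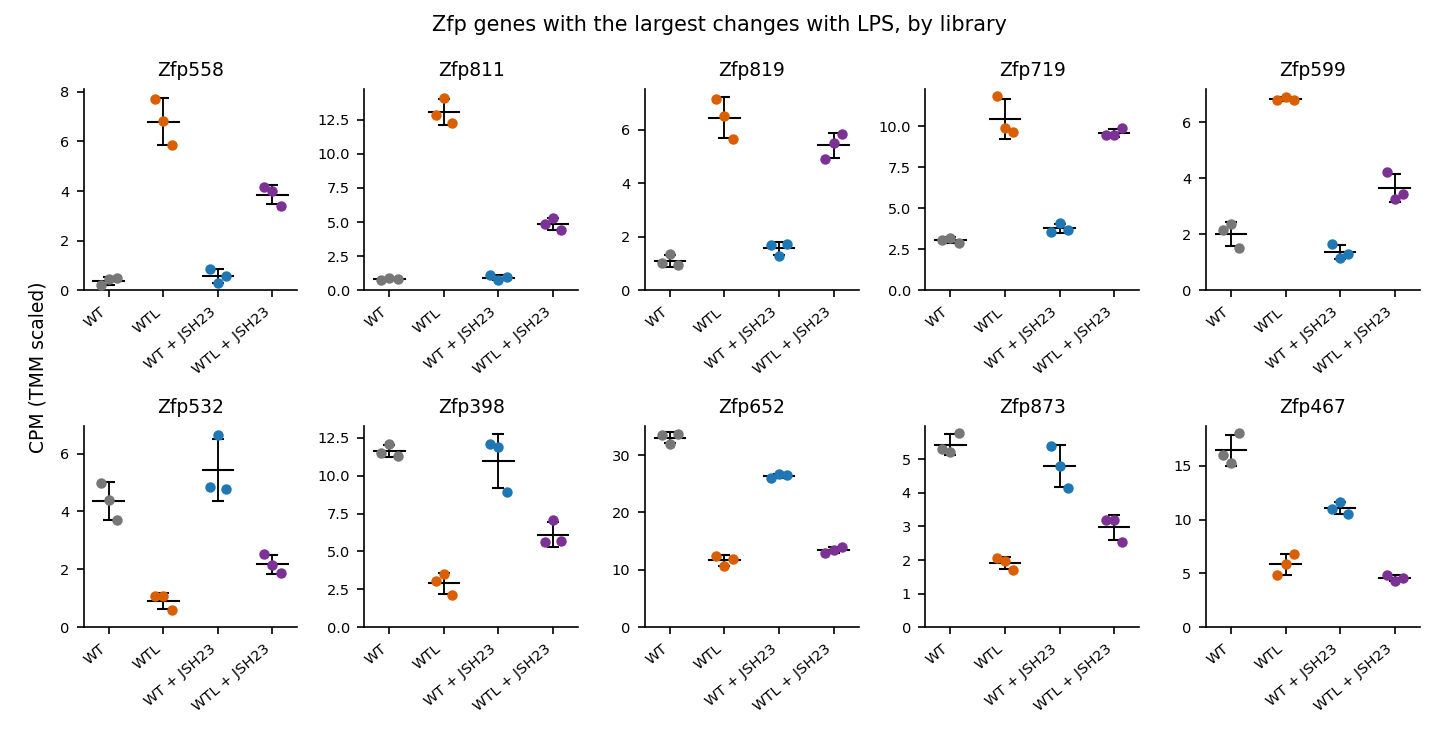
CPM scaled by TMM (vertical axes from 0) in each of the 3 libraries of the 4 groups (points) for the 5 Zfp genes with the largest rises (top) and the 5 with the largest falls (bottom) with LPS in the absence of JSH-23; lines are means and bars SD. The genes were picked among those where WT and WTL do not overlap, so the lack of overlap in the panels follows from that choice.

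Among the Zfp proteins listed for roles outside transcription, both that act on ribosomes rose. Zfp598, a ubiquitin ligase that senses collided ribosomes, was at 46.3, 43.6 and 52.8 CPM in WT and 110, 108 and 109 CPM in WTL (log2 fold change 1.20 ± 0.05, edgeR adjusted p = 2.9e-14). Zfp622, a maturation factor of the large ribosomal subunit, rose by 0.90 ± 0.05 (edgeR adjusted p = 1.1e-12). In the list of 11 genes for RNA, ribosome and cell division proteins 6 rose and 4 fell, where 31.0% of all genes rose and 34.7% fell, with a median of 0.10, a split that turned to 3 and 4 with upper quartile scaling and to 2 and 6 with limma on log2(TPM + 1). Zfp385a, an RNA-binding partner of p53, fell from 92.3, 93.2 and 94.3 CPM to 36.5, 37.2 and 39.8 CPM (-1.30 ± 0.05, edgeR adjusted p = 1.5e-15).

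Of 25 genes listed as DNA-binding regulators 23 were tested members, of which 9 rose and 9 fell, with a median of -0.07, and 31.0% and 34.7% of all genes did so. Zfp263 rose most, from 64.4, 65.8 and 61.6 CPM to 176, 169 and 174 CPM (log2 fold change 1.44 ± 0.05, edgeR adjusted p = 7.5e-16), followed by Zfp503, a corepressor of the NET family, at 1.22 ± 0.09 (edgeR adjusted p = 7.8e-11) and the BTB-domain gene Zfp131 at 1.01 ± 0.05 (edgeR adjusted p = 5.7e-13). Zfp366, the dendritic cell factor DC-SCRIPT, had an estimate of -0.08 ± 0.05 (edgeR adjusted p = 0.13). Zfp91, a ubiquitin ligase of the non-canonical NF-κB pathway, fell by 0.49 and the CoREST partner Zfp217 fell by 0.27.

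Of the 10 KRAB silencers listed with a known target 4 were tested members, of which 2 rose and 2 fell. Zfp568, a repressor of a placental Igf2 transcript, rose from 29.9, 29 and 30.4 CPM to 79, 72.6 and 78 CPM (log2 fold change 1.36 ± 0.05, edgeR adjusted p = 5.9e-16). Zfp932, a silencer of endogenous retroviruses, fell by 0.74 (edgeR adjusted p = 2e-05), with fractional counts in all 12 libraries. Of 18 genes for the machinery that KRAB proteins recruit, none of them a Zfp gene, 10 fell and 5 rose, where 34.7% of all genes fell and 31.0% rose, and the counts were 7 and 5 with DESeq2 and 8 and 6 with its size factors in edgeR. Trim28, the common corepressor, fell by 0.47, Setdb1 and its partner Atf7ip each fell by 0.79, the HP1 gene Cbx3 fell by 0.89 and the DNA methyltransferase Dnmt1 fell by 1.27. Chd4, Hdac1, Pphln1, Morc3 and Morc2a were the 5 that rose, of which none rose with limma on log2(TPM + 1).

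The second comparison asked the same of JSH-23 treated cells. With JSH-23 present, LPS raised 69 of 278 members, where 27.4% of all genes rose, and lowered 76, where 27.1% of all genes fell (edgeR, adjusted p under 0.05). The split was 52 and 100 with upper quartile scaling, where the median of all genes was -0.10, and 26 and 101 with limma on log2(TPM + 1), where it was -0.16. The members' median was -0.05 and that of all genes -0.02. Beyond 2-fold 9 members were higher, where 5.85% of all genes were, and 3 were lower, where 4.49% of all genes were. Each was a smaller share than that of all genes. With upper quartile scaling this split was 8 and 5, and with limma on log2(TPM + 1) it was 3 and 5. Of 156 KRAB genes 34 rose and 44 fell, with a median of -0.06, and none fell by more than 2-fold. The 5 largest rises were Zfp558 (log2 fold change 2.71 ± 0.25), Zfp811 (2.36 ± 0.15), Zfp819 (1.77 ± 0.16), Zfp599 (1.40 ± 0.18) and Zfp719 (1.35 ± 0.10), with edgeR adjusted p-values of at most 9.8e-07. All of these but Zfp719 are the genes noted above as chosen through groups where they were higher. The largest falls were Zfp532 (-1.30 ± 0.18), Zfp467 (-1.27 ± 0.11), Zfp710 (-1.16 ± 0.07), Zfp385a (-0.98 ± 0.05) and Zfp652 (-0.97 ± 0.06), at edgeR adjusted p-values of at most 2.6e-06. Of these, Zfp532 was chosen through the groups without LPS, as noted above.

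Whether the response to LPS differed with JSH-23 was tested directly by the interaction, the LPS change with JSH-23 minus that without it. Of 278 members 39 had a positive interaction, where 9.54% of all genes tested did (edgeR, adjusted p under 0.05). A negative interaction was found for 13 members, where 8.44% of all genes tested had one. The median was 0.13 against 0.03 over all genes. With the size factors of DESeq2 the split was 31 and 17, with DESeq2 itself 24 and 13, and with limma on log2(TPM + 1) 23 and 4, where the median of all genes was 0.11. KRAB genes accounted for 21 of the 39 and 7 of the 13, and they were 156 of the 278 tested members. Without WTL replicate 5 the counts of positive and negative interactions were 25 and 9, and without WT + JSH23 replicate 3 they were 23 and 9. Without WTL + JSH23 replicate 3 they were 46 and 12.

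The largest negative interactions were those of Zfp811, Zfp558 and Zfp503. Zfp811 and Zfp558 had a mean under 1 TPM in WT and were chosen through groups where they were higher. That choice favours a large rise with LPS, so their interactions are described and not used as support. Zfp811 had 1.11, 0.76 and 0.953 CPM in WT + JSH23 and 4.89, 5.33 and 4.45 CPM in WTL + JSH23, so that its rise was smaller by 1.60 ± 0.23 on the log2 scale (interaction -1.60, edgeR adjusted p = 5.6e-05). Zfp558 had 0.86, 0.289 and 0.579 CPM and 4.15, 4.02 and 3.41 CPM in the same groups (interaction -1.40 ± 0.41, edgeR adjusted p = 0.021). Its interaction did not pass without WT replicate 4 (adjusted p = 0.0758) or without WT + JSH23 replicate 1 (adjusted p = 0.16). Zfp503 rose with LPS from 4.5, 4.21 and 4.45 CPM to 9.72, 10.1 and 10.9 CPM without JSH-23 and from 8.14, 7.49 and 8.61 CPM to 10.3, 10.7 and 10.1 CPM with it (interaction -0.87 ± 0.12, edgeR adjusted p = 3.6e-05). The WTL and WTL + JSH23 libraries of Zfp503 overlapped (difference 0.02 ± 0.08, edgeR adjusted p = 0.87), whereas those of WT and WT + JSH23 did not.

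Among the largest positive interactions were those of genes that fell less with JSH-23. Zfp398 had 12.1, 11.9 and 8.92 CPM in WT + JSH23 and 5.6, 7.04 and 5.7 CPM in WTL + JSH23 (interaction 1.13 ± 0.20, edgeR adjusted p = 0.00038). Zfp109 fell from 4.1, 3.36 and 3.9 CPM to 2.56, 2.5 and 2.26 CPM without JSH-23 and had 3.04, 3.51 and 3.06 against 3.93, 3.22 and 4.02 CPM with it (interaction 0.85 ± 0.20, edgeR adjusted p = 0.005). Zfp873 (0.82 ± 0.20) and Zfp703 (0.53 ± 0.09) also passed, the latter with a larger rise with JSH-23, at 1.07 ± 0.06 against 0.54 ± 0.06. The interactions of Zfp503, Zfp398, Zfp109, Zfp873, Zfp703 and Zfp704 passed in every fit with 1 library left out, with edgeR adjusted p-values of at most 0.0224. That of Zfp811 passed too, but leaving out a library does not undo its choice through groups where it was higher.

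**Figure D4:**
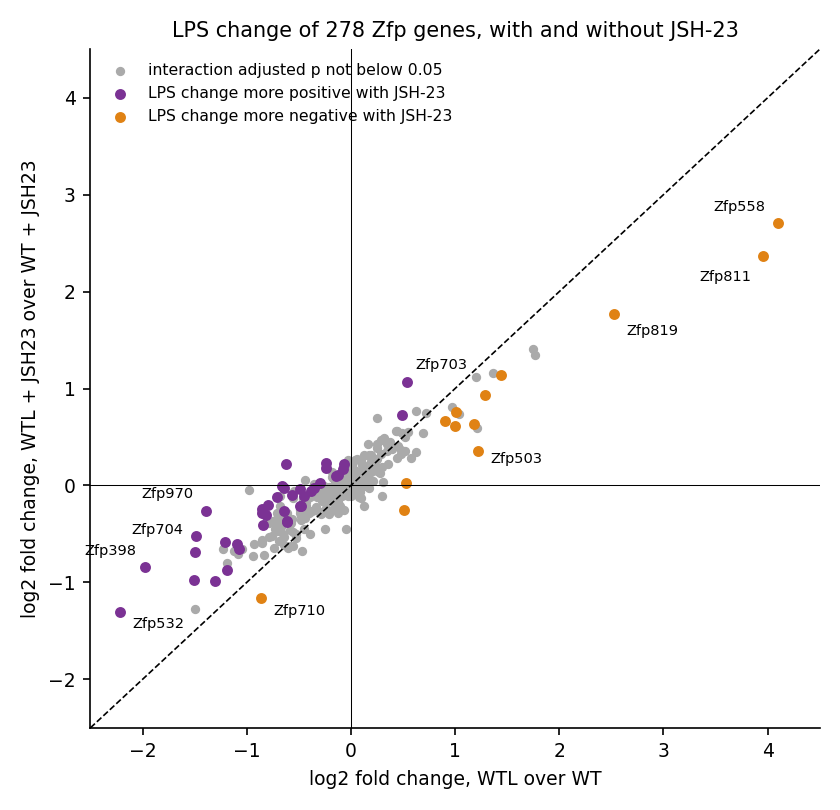
Log2 fold change with LPS of the 278 tested Zfp genes without JSH-23 (horizontal axis, WTL over WT) and with it (vertical axis, WTL + JSH23 over WT + JSH23); the dashed line marks equal changes and colours mark an interaction with adjusted p under 0.05. Zfp811 and Zfp558 lie farthest below the line and Zfp398 and Zfp970 farthest above it.

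The third comparison set WTL + JSH23 against WTL and so shares WTL with the first comparison and with the interaction. More Zfp genes were higher than lower with JSH-23 under LPS: 89 of 278 members rose, where 24.5% of all genes rose, and 41 fell, where 24.2% of all genes fell (edgeR, adjusted p under 0.05). The split was 82 and 43 with the size factors of DESeq2, 67 and 41 with DESeq2 itself, 100 and 40 with upper quartile scaling, and 90 and 20 with limma on log2(TPM + 1), where 4242 of all genes were higher and 1967 lower. The members' median was 0.13 and that of all genes 0.02, and the members' median lay above that of all genes with the size factors of DESeq2 (0.11), upper quartile scaling (0.15) and limma on log2(TPM + 1) (0.18) too. Beyond 2-fold 7 members were higher, where 3.75% of all genes were, and 2 were lower, where 3.25% of all genes were. KRAB genes had 45 rises and 19 falls of 156, and C2H2-only genes 37 and 22 of 104.

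The paralogs Zfp874a and Zfp874b, KRAB genes in the cluster at 67.1 to 67.8 Mb of chromosome 13, were higher in both JSH-23 groups. Zfp874b was at 4.56, 5.26 and 5.97 CPM in WT, 4.84, 4.17 and 4.37 CPM in WTL, 16, 15.3 and 15.3 CPM in WT + JSH23, and 17.7, 15.9 and 19.2 CPM in WTL + JSH23. Its log2 fold change with JSH-23 was 1.98 ± 0.10 under LPS (edgeR adjusted p = 6.3e-13) and 1.56 ± 0.09 without LPS (edgeR adjusted p = 1.1e-11). Zfp874a was at 3.87, 3.17 and 3.82 CPM in WTL and 8.75, 8.36 and 9.64 CPM in WTL + JSH23 (1.31 ± 0.11, edgeR adjusted p = 1.6e-09). JSH-23 and untreated libraries did not overlap for either gene, which under LPS was a condition of the choice. Counts of Zfp874b were fractional in all 12 libraries and those of Zfp874a in 11, so the division of reads between near-identical genes is uncertain, and of the 9 members past 2-fold 5 had whole counts throughout.

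The 250 bases before the RefSeq starts of the pair share an identical run of 45 bases, which ends shortly before a CRE match, in capitals, that begins 10 bases before the start of Zfp874a and 12 before that of Zfp874b. They are printed 5′ to 3′ in gene direction (GRCm38.p6), since both genes moved with JSH-23.
Zfp874a, chr13:67451625-67451874 (- strand): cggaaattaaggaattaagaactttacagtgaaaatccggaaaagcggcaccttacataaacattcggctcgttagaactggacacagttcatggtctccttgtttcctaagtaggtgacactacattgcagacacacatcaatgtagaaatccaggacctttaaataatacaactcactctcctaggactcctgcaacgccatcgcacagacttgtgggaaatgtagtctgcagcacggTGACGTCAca
Zfp874b, chr13:67484254-67484503 (- strand): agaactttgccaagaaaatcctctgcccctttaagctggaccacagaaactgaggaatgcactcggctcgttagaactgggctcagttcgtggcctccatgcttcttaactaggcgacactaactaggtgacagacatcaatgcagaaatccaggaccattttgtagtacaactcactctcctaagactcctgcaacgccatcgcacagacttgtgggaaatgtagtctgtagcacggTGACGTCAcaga
The match is a description of letters. The other 8 members with a CRE match had changes with JSH-23 under LPS between -0.33 (Zfp868) and 0.46 (Zfp523).

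**Figure D5:**
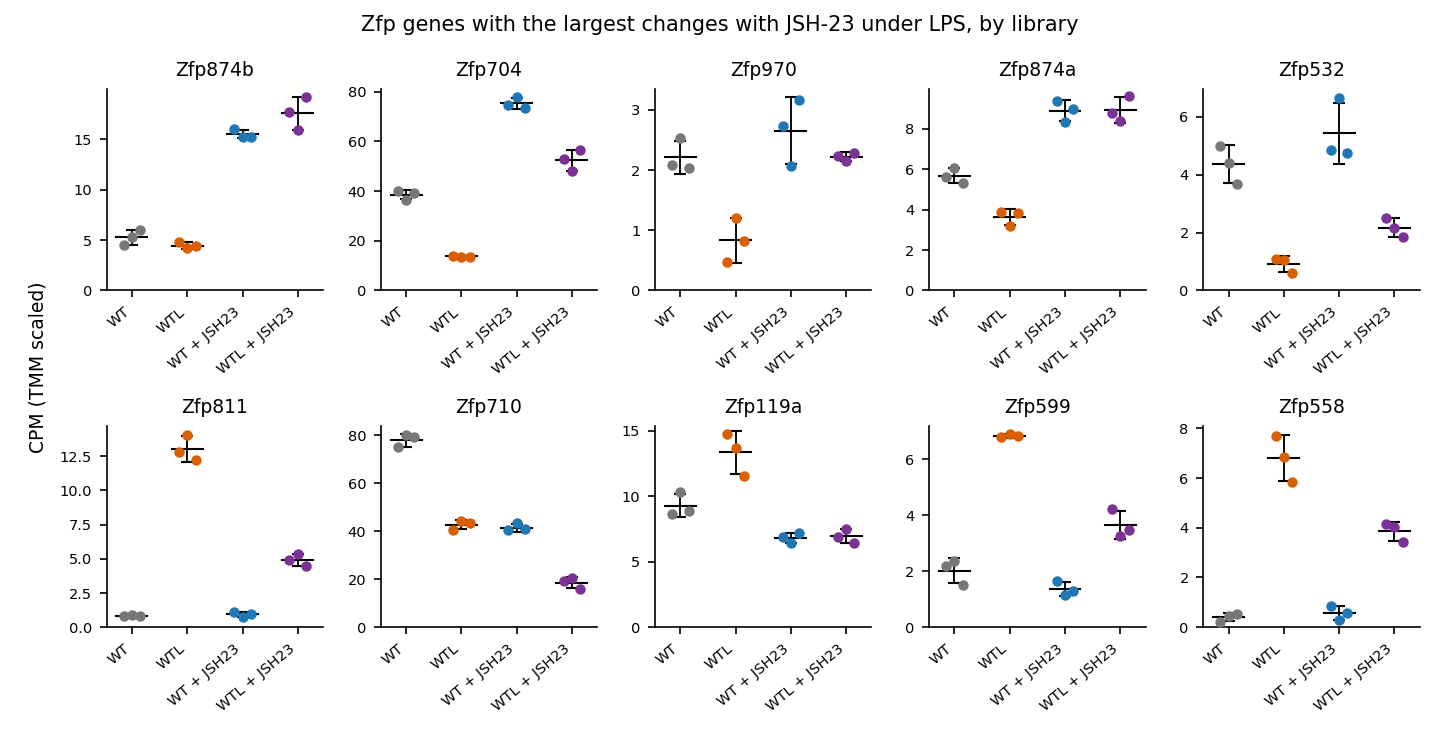
CPM scaled by TMM (vertical axes from 0) in each of the 3 libraries of the 4 groups (points) for the 5 Zfp genes with the largest rises (top) and the 5 with the largest falls (bottom) with JSH-23 under LPS; lines are means and bars SD. The genes were picked among those where WTL and WTL + JSH23 do not overlap, so the lack of overlap in the panels follows from that choice.

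Zfp704 (chr3:9427020-9610085), whose counts were whole in all libraries, was at 39.9, 36.6 and 39.3 CPM in WT, 14, 13.6 and 13.5 CPM in WTL, 74.6, 77.8 and 73.5 CPM in WT + JSH23, and 53, 47.9 and 56.3 CPM in WTL + JSH23. It rose with JSH-23 by 1.93 ± 0.06 under LPS (edgeR adjusted p = 1.2e-15) and by 0.97 ± 0.05 without LPS (edgeR adjusted p = 3.4e-12), and the difference of these was the interaction of 0.97 ± 0.08 (edgeR adjusted p = 1.6e-07). Its 4 groups did not overlap. Zfp970 (1.39 ± 0.26, edgeR adjusted p = 0.00011, fractional counts in all 12 libraries) and Zfp532 (1.22 ± 0.24, edgeR adjusted p = 0.00024) completed the 5 largest rises. Zfp532 had a mean of 0.487 TPM in WTL and 0.837 TPM in WTL + JSH23 and was chosen through the groups without LPS, where it was higher. Its call was lost with limma on log2(TPM + 1), and its lowest estimate over the settings was 0.31.

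Zfp710 (chr7:80024814-80094173) went the other way and was lower with either agent. It was at 75, 80 and 79.2 CPM in WT, 40.7, 44.4 and 43.3 CPM in WTL, 40.4, 43.4 and 40.7 CPM in WT + JSH23, and 19.2, 20.4 and 15.9 CPM in WTL + JSH23. The fall with JSH-23 was 1.21 on the log2 scale under LPS (log2 fold change -1.21 ± 0.07, edgeR adjusted p = 4.1e-12) and -0.91 ± 0.06 without it (edgeR adjusted p = 3.4e-11). WTL and WT + JSH23 overlapped, and WTL + JSH23 lay below both. The other falls under LPS were those of Zfp811 (-1.42 ± 0.10, edgeR adjusted p = 2.8e-10), Zfp119a (-0.94 ± 0.10, edgeR adjusted p = 7.5e-08, fractional counts in 10 libraries), Zfp599 (-0.90 ± 0.15, edgeR adjusted p = 2.8e-05) and Zfp558 (-0.82 ± 0.18, edgeR adjusted p = 0.00064). Of these, Zfp811, Zfp599 and Zfp558 had a mean under 1 TPM in WT and were chosen through groups where they were higher.

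The fourth comparison set WT + JSH23 against WT and shares its libraries with the comparisons above. Without LPS, JSH-23 changed fewer Zfp genes: 38 of 278 members rose, where 18.8% of all genes rose, and 39 fell, where 22.1% of all genes fell, with a median of 0.00 (edgeR, adjusted p under 0.05). Past 2-fold 1 member, Zfp874b, was higher, where 2.43% of all genes were, and none was lower, where 2.94% of all genes were. Without WT replicate 4 or without WT replicate 5, 2 members were higher. After Zfp874b and Zfp704 the largest rises were Zfp583 (0.90 ± 0.18), Zfp503 (0.88 ± 0.09) and Zfp661 (0.80 ± 0.19), with edgeR adjusted p-values of at most 0.0014. The largest falls were Zfp710, Zfp385a (-0.85 ± 0.05), Zfp800 (-0.68 ± 0.05), Zfp770 (-0.62 ± 0.10) and Zfp467 (-0.57 ± 0.09), at edgeR adjusted p-values of at most 5.2e-05.

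Zfp385a was at 51.4, 54.9 and 48.9 CPM in WT + JSH23 and 26.9, 26.8 and 24.7 CPM in WTL + JSH23, so each agent was accompanied by a fall, as for Zfp710. Zfp800 was at 79.6, 77.9 and 73.5 CPM in WT, 133, 124 and 125 CPM in WTL, 47.4, 48.4 and 48 CPM in WT + JSH23, and 82.3, 84.9 and 74.5 CPM in WTL + JSH23. LPS raised Zfp800 by 0.72 ± 0.05 without JSH-23 and by 0.75 ± 0.05 with it, and its interaction was 0.03 ± 0.07 (edgeR adjusted p = 0.84). Zfp598 likewise rose by 1.12 ± 0.05 with JSH-23, with an interaction of -0.08 ± 0.08 (edgeR adjusted p = 0.53). Zfp263 rose by 1.14 ± 0.05 with JSH-23 and had an interaction of -0.30 ± 0.07 (edgeR adjusted p = 0.0081), which did not pass with limma on log2(TPM + 1).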

How the data were processed

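RNA-seq was analysed for 12 BMDC libraries, 3 in each of 4 groups taken from the sample titles. The deposited expected counts (estimated read counts per gene) and TPM values were made by the authors: reads were trimmed with Trim Galore, aligned to mm10 with STAR 2.6.0c and quantified with RSEM on a GENCODE annotation. The labels name an rRNA depletion kit and the methods a poly(A) kit, and which was used was not settled. The authors deposited the TPM values without scaling between libraries. Reads that fit several genes were divided by RSEM, which leaves fractional counts: 94 members had them in at least 1 library and 37 in all 12.

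Symbols, positions and coding sequences came from GENCODE M21, on the same build (55154 of 55335 identifiers matched). Expected counts were rounded, filtered (filterByExpr), scaled by TMM and tested with the quasi-likelihood F-test of edgeR 4.0.16 (R 4.3.3) over all 12 libraries with 1 mean per group and 8 residual degrees of freedom. P-values were adjusted by Benjamini-Hochberg over all 14357 genes tested, and a change was called at an adjusted p under 0.05, where stated with more than 2-fold. SE was the log2 fold change divided by the square root of F. DESeq2 1.42.0 and limma 3.58.1 on log2(TPM + 1) were alternatives. The fits were tested on simulated data. Members and gene lists were chosen with earlier results of these data known. Genes counted as named are the members in the Zfp lists, the 5 of highest level, the 3 on either side of the limit and the 5 largest rises and falls per comparison. The rises and falls had an adjusted p under 0.05 and more than 3 counts per library. For comparisons of 2 groups they also had no overlap between groups, which was not asked for the interaction. Some list genes counted as named are not printed. Genes named for their place, class or motif were chosen after their values were seen. Classes came from translated GENCODE coding sequences, and no protein table was used here. Replicate pairs of a group differed by more than sampling noise. WTL + JSH23 replicate 3 stood apart, with a mean chi-square per gene of 8.19 and 9.12 against the other replicates of its group. In the other pairs this value was between 2.32 and 4.50. Replicate numbers were not used to pair samples, because the methods of the study name no pairing. Same-numbered libraries had correlations of deviations of at most 0.061. No solvent or batch information was used.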

Additional observations from a re-analysis of the deposited data

Results flagged for a closer look

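For 27 of the genes named, the interaction term of edgeR passed an adjusted p under 0.05, so the change with LPS was not the same once JSH-23 was present. Negative values mean a more negative change with JSH-23. They were -1.60 for Zfp811, -1.40 for Zfp558, -0.87 for Zfp503, -0.76 for Zfp583, -0.75 for Zfp819, -0.50 for Zfp119a, -0.30 for Zfp263, -0.29 for Zfp710, -0.26 for Zfp131 and -0.24 for Zfp622 on the log2 scale. Positive values were 0.24 for Zfp516, 0.25 for Zfp366, 0.27 for Zfp91, 0.32 for Zfp385a, 0.33 for Zfp292, 0.34 for Zfp106, 0.41 for Zfp874b, 0.53 for Zfp703, 0.53 for Zfp652, 0.59 for Zfp770, 0.66 for Zfp874a, 0.82 for Zfp873, 0.85 for Zfp109, 0.91 for Zfp532, 0.97 for Zfp704, 1.13 for Zfp970 and 1.13 for Zfp398.

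With 1 library left out, 15 of these genes passed in each of the 12 fits and 12 did not pass in at least 1 of them, with the sign kept in every fit. The number of fits in which the call was lost was 2 for Zfp558 (with log2 values from -1.69 to -0.97 over the 12 fits), 9 for Zfp583 (-0.88 to -0.61), 7 for Zfp819 (-0.94 to -0.67), 2 for Zfp119a (-0.59 to -0.42), 4 for Zfp710 (-0.37 to -0.20), 4 for Zfp131 (-0.31 to -0.21), 6 for Zfp622 (-0.29 to -0.19), 8 for Zfp292 (0.25 to 0.44), 9 for Zfp874b (0.32 to 0.51), 2 for Zfp770 (0.46 to 0.75), 6 for Zfp532 (0.72 to 1.08) and 2 for Zfp970 (0.84 to 1.54). Without WT replicate 4, the adjusted p was 0.0758 for Zfp558, 0.0828 for Zfp583, 0.0784 for Zfp819, 0.0505 for Zfp119a, 0.0704 for Zfp710, 0.102 for Zfp292 and 0.0776 for Zfp532. It was 0.0515 for Zfp131, 0.0522 for Zfp292, 0.0829 for Zfp874b, 0.0533 for Zfp532 and 0.0552 for Zfp970 without WT replicate 5. It was 0.111 for Zfp583, 0.0785 for Zfp819, 0.0825 for Zfp131, 0.074 for Zfp622 and 0.148 for Zfp874b without WT replicate 6. Without WTL replicate 4, the adjusted p was 0.103 for Zfp583, 0.0725 for Zfp819, 0.0585 for Zfp119a, 0.068 for Zfp131, 0.0648 for Zfp622 and 0.0747 for Zfp970. It was 0.0595 for Zfp583, 0.0578 for Zfp819, 0.0815 for Zfp710, 0.0709 for Zfp622, 0.0957 for Zfp292, 0.142 for Zfp874b and 0.0511 for Zfp770 without WTL replicate 5. It was 0.0737 for Zfp583, 0.0745 for Zfp292, 0.0794 for Zfp874b and 0.0946 for Zfp532 without WTL replicate 6. Without WT + JSH23 replicate 1, the adjusted p was 0.16 for Zfp558, 0.0773 for Zfp583, 0.0768 for Zfp819, 0.081 for Zfp131, 0.0574 for Zfp874b and 0.0683 for Zfp532. It was 0.0549 for Zfp583, 0.0643 for Zfp710, 0.0512 for Zfp292 and 0.0738 for Zfp874b without WT + JSH23 replicate 2. It was 0.096 for Zfp583, 0.0823 for Zfp819, 0.0577 for Zfp622, 0.1 for Zfp292, 0.0829 for Zfp874b and 0.0686 for Zfp532 without WT + JSH23 replicate 3. Without WTL + JSH23 replicate 1, the adjusted p was 0.0672 for Zfp819, 0.0598 for Zfp622, 0.13 for Zfp292, 0.0757 for Zfp874b, 0.0621 for Zfp770 and 0.098 for Zfp532. It was 0.0728 for Zfp622 and 0.0956 for Zfp292 without WTL + JSH23 replicate 2. It was 0.101 for Zfp583, 0.0681 for Zfp710 and 0.0804 for Zfp874b without WTL + JSH23 replicate 3.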

How the results depend on the processing

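Counts of members called (at more than 2-fold 32, 12, 9 and 1 in the 4 comparisons in the order of the text, and 52 for the interaction at the adjusted p alone) stayed within 1.5 times under the size factors of DESeq2, upper quartile scaling, no filter on low counts and DESeq2. With limma on log2(TPM + 1) they were 21 for LPS without JSH-23 and 27 for the interaction, where the median of all genes fell by 0.26 with LPS. With the adjusted p alone 180, 145, 130 and 77 members were called, and with more than 2-fold added the interaction had 4. Among members without fractional counts 5 were called with JSH-23 under LPS and 0 with JSH-23 alone. At the adjusted p alone, 27 of these 184 rose and 25 fell with JSH-23 alone (edgeR), where 18.8% of all genes tested rose and 22.1% fell. With 1 library left out the counts ranged from 30 to 34, 12 to 13, 9 to 12, 1 to 2 and, for the interaction, 32 to 58; the 2 members for JSH-23 without LPS came without WT replicate 4 or 5, and the interaction had 34 without WTL replicate 5 and 32 without WT + JSH23 replicate 3. The cause was not tested.

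With the replicate block the counts were 32 and 12 for LPS and 57 for the interaction. The numbers are not stated to mark a shared source, the correlations of same-numbered deviations were between 0.014 and 0.061, and in WT and WTL every library correlated best with its own number, which is a hint from the data and not the design.

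Of 193 named results that passed, 123 held under every setting, 38 were lost in some fit with 1 library left out and 14 changed sign, all with limma on log2(TPM + 1). These were, for LPS without JSH-23, Zfp207 (-0.20), Zfp318 (-0.0766), Zfp330 (-0.0536), Zfp384 (-0.10), Zfp608 (-0.0736), Zfp638 (-0.13) and Zfp830 (-0.15), for LPS with JSH-23, Zfp143 (-0.0086), Zfp330 (-0.0723), Zfp366 (-0.0302), Zfp445 (-0.0239), Zfp608 (-0.001) and Zfp638 (-0.014), and for JSH-23 under LPS, Zfp384 (0.0198).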
